A study of Mus musculus with 40 samples.

Results

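Axon guidance genes are described here, in RNA from whole forebrain homogenate, from synaptoneurosomes and from ribosomes captured in a class of pyramidal neurons or in GABAergic neurons of the mouse. The genes were chosen by symbol alone, from protein-coding symbols spelled as members of the Sema3 to Sema7, Plxn, Efna, Efnb, Epha, Ephb and Unc5 families. Nrp1, Nrp2, Slit1 to Slit3 and Robo1 to Robo3 were included as well, whereas Robo4 was counted with the other pathway genes. A gene was taken if it had at least 10 counts in at least 5 of the 40 libraries. Of 65 symbols that matched, 62 passed, out of 41388 genes in the files. Epha2, Efna4 and Unc5cl did not pass. Unc50 passed by its spelling only and is no guidance gene, which leaves 61 guidance genes, and 52 of the 62 had at least 10 counts in every library. They comprise 7 secreted semaphorins, 13 membrane semaphorins, 2 neuropilins, 9 plexins, 4 ephrin-A and 3 ephrin-B ligands, 8 EphA and 5 EphB receptors, 3 Slits, 3 Robos and 4 Unc5 receptors. No measured value other than the count minimum entered this rule, but the genes were chosen with earlier results of these data known.

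All mice carried a Cre-dependent TRAP reporter, an EGFP-tagged copy of the large-subunit ribosomal protein Rpl10a at the Rosa26 locus that is made only where Cre is active. In RBP4-TRAP mice Cre came from the transgene Tg(RBP4-cre)KL100Gsat/Mmcd, which is active in layer 5 pyramidal cells. In VGAT-TRAP mice it came from Slc32a1tm2(cre)Lowl/J, an allele of the vesicular GABA transporter gene that is active in GABAergic neurons of any type. No Cre-negative mice and no untreated or mutant group were among the libraries, and all mice were P21 (21 days old). Each line had 5 replicates, each a pool of forebrains from both sexes, and 4 fractions were prepared from every pool, giving 8 groups of 5 libraries. WCH was RNA of the whole cell homogenate, TRAP was RNA from tagged ribosomes captured from it, SNF was RNA of the synaptoneurosome fraction, which is enriched in pinched-off synaptic endings and the processes attached to them, and ST (SynapTRAP) was the ribosome capture repeated on the SNF. The labels name the tissue as cortex whereas the protocol describes whole forebrain, and the summed level of striatal marker genes was 3178 to 4949 cpm in VGAT TRAP and 107 to 271 cpm in RBP4 TRAP.

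The libraries held 14259535 to 22037703 counts, with a mitochondrial share of 0.0584 to 0.511% in TRAP, 2.01 to 10% in WCH, 2.71 to 19.0% in ST and 11.2 to 41.9% in SNF, where replicate 3 was highest in both lines (40.2 and 41.9%). Mitochondrial, rRNA and tRNA genes were left out, and levels are given as cpm, each count divided by the total that remained in its library and scaled in the usual way, so that 1 count was worth 0.0455 to 0.112 cpm. The lines matched their labels in TRAP: Fezf2, a layer 5 transcription factor, averaged 125 cpm in RBP4 and 7.68 cpm in VGAT, and GABAergic marker genes summed to 355 to 898 cpm in RBP4 and 11232 to 13921 cpm in VGAT. Some libraries stood apart from their group in these genes. In RBP4 TRAP, replicate 5 had 331 cpm of the GABA-synthesis gene Gad1 where the other 4 had 58.3 to 95.0 cpm, and in VGAT TRAP, replicate 3 had 155 cpm of the glutamate transporter gene Slc17a7 and 18.6 cpm of Fezf2 where the others had at most 48.8 and 5.76 cpm. RBP4 ST replicate 4 had 49.9 cpm of Slc32a1 against a group median of 16.7 cpm, and 16 of the 62 genes lay above and 3 below the range of the other 4 RBP4 ST libraries. Some counts that rest on these libraries are therefore also given without them or without their whole pool. The counts of genes lower in TRAP than in WCH are not. The fractions are whole tissue or captured RNA, so a lower level can mean fewer cells of a type or less RNA per cell, and these cannot be told apart.

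Guidance genes encode cues and the receptors that read them at the growing axon tip. Semaphorins bind plexins, with neuropilins as co-receptors for most secreted semaphorins. Ephrins are membrane-bound ligands of Eph receptor tyrosine kinases and can also signal backwards into the cell that carries them. Slits act through Robo receptors, and netrins through DCC and Unc5 receptors. Many of these proteins persist in the maturing forebrain, where they act at dendritic spines, inhibitory synapses and myelin, and ephrin and EphA gradients help set the layout of cortical and striatal projections.

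The largest differences between the lines in TRAP were those of Efna1, which encodes the ligand ephrin-A1, and Sema4g, which encodes a membrane semaphorin. Their promoters are shown because these 2 genes differed in opposite directions. The sequences run 5′ to 3′ from 250 bases before to 50 bases after the RefSeq start on GRCm38.p6, and capitals mark TAATTA, the core read by many homeodomain factors, and the GC box GGGCGG or its reverse complement CCGCCC. Efna1 has 2 listed starts, both on the minus strand, at chr3:89280902-89281201 and chr3:89279596-89279895, and Sema4g lies on the plus strand at chr19:44989094-44989393.
Efna1, upstream start: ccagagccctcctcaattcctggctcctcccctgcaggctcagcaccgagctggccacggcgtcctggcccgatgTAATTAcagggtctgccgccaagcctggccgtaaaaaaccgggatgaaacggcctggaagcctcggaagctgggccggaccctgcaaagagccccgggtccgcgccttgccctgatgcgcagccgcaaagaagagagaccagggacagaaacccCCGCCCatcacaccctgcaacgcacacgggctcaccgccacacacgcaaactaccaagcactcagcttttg
Efna1, downstream start: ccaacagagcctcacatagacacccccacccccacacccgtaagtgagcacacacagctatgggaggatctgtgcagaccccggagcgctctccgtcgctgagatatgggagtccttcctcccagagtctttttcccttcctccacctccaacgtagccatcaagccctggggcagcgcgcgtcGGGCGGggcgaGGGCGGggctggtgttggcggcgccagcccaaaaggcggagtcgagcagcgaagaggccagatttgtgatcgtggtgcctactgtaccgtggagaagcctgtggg
Sema4g: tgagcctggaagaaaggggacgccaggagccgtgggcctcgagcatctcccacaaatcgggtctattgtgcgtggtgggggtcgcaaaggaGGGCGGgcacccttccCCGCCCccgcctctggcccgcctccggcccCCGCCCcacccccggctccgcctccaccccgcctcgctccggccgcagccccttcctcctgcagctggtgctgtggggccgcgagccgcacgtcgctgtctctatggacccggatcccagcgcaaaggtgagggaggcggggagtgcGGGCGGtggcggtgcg
The upstream Efna1 promoter had a GC content of 63.7%, 20 CpG dinucleotides, 1 TAATTA and 1 GC box. The downstream one had 63.3%, 20 CpG, no TAATTA and 2 GC boxes. The Sema4g promoter had 73.3%, 30 CpG, no TAATTA and 4 GC boxes. Among 70 promoters listed for 54 of the genes, 51 (72.9%) held GGGCGG on either strand, against 35.7% of all 32851 promoters of this length. TAATTA stood in 3 (4.29%) against 5.29% of all, and the TATA box letters TATAAA in 2 (2.86%) against 13.6%. Each motif was counted on its own, TAATTA and TATAAA can share bases, and a match describes letters in the window only. No background matched in expression or gene type is given here, so these shares are a description.

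In whole tissue Epha4, an EphA receptor that binds ephrins of both classes, and Efna5, an ephrin-A ligand, had the highest levels among the guidance genes once counts were divided by exon length. The paper reports that its reads are strongly biased toward the 3′ end of transcripts. Dividing by the whole exon length may therefore understate long genes, and the orders given here rest on that division. Epha4 stood at 52.4 ± 1.44 cpm per kb (SD, n = 5) in RBP4 WCH and at 52.7 ± 4.65 in VGAT WCH. Efna5 followed at 43.0 ± 21.9 and 50.7 ± 14.8 cpm per kb, within its own spread of Epha4. Below them Epha5, Efnb3 and Ephb6, with 16.5 ± 0.503, 16 ± 1.83 and 15.6 ± 2.06 cpm per kb in VGAT WCH, did not differ beyond their spread. In RBP4 TRAP the order began with Efna5 at 45.1 ± 17.4, Epha4 at 31.4 ± 5.87 and Ephb6 at 19.6 ± 2.21 cpm per kb. In VGAT TRAP it began with Efnb3 at 20.1 ± 2.05, Efna5 at 17.3 ± 2.51 and Epha4 at 12.9 ± 3.37 cpm per kb, the first 2 of which overlapped.

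**Figure D1:**
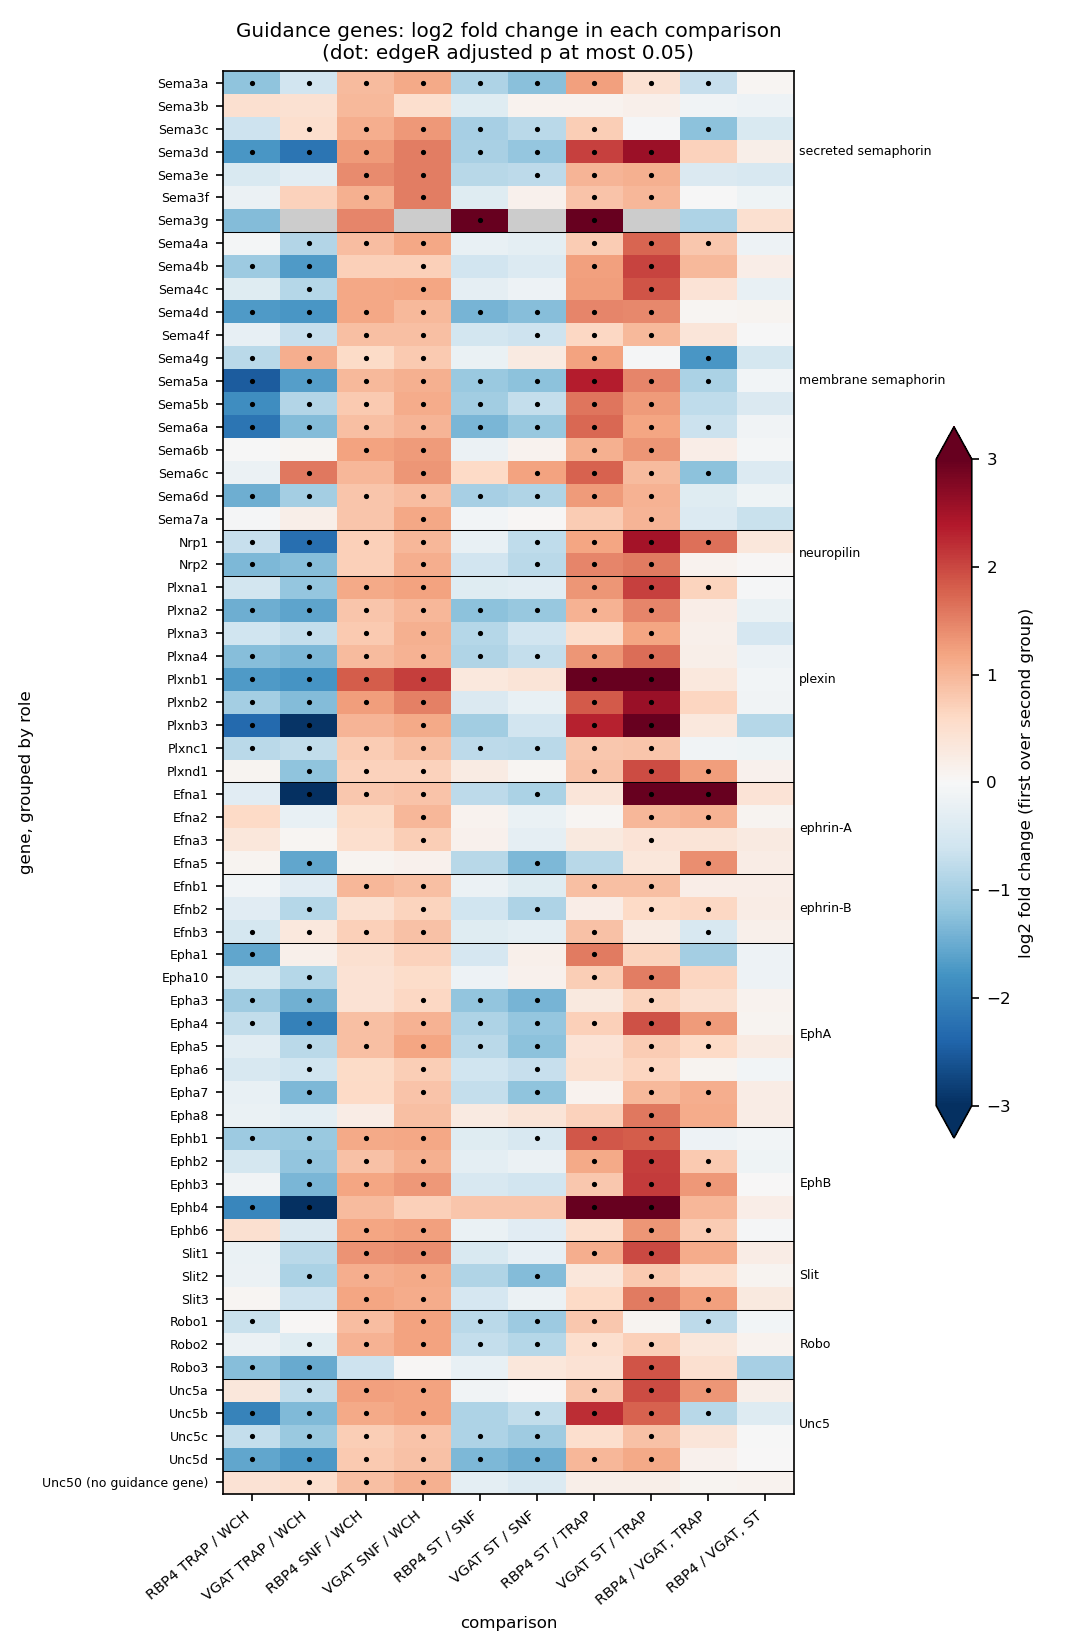
Colour gives the log2 fold change of each of the 62 genes (rows, grouped by role) in each comparison (columns, first group over second), clipped at 3 in either direction, and a dot marks an edgeR adjusted p of at most 0.05. SNF against WCH and ST against TRAP are red nearly throughout, whereas TRAP against WCH and ST against SNF are mostly blue.

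The comparison of TRAP between the lines asks which guidance genes differ between ribosome-bound RNA of layer 5 pyramidal cells and that of GABAergic neurons. Of 13 Eph receptors 6, and of 7 ephrin ligands 4, were higher in RBP4, and of the 9 genes higher in VGAT 6 were semaphorins. With edgeR, 16 of the 62 genes were higher in RBP4 and 9 were higher in VGAT, that is 16 against a background of 12.9% and 9 against 15.1% of all 16898 genes tested. The median log2 difference was 0.33 over the 62 genes and -0.01 over all genes. Without RBP4 pool 5 the counts were 15 and 11, and without VGAT pool 3 they were 18 and 7. Of the 8 EphA receptors 3 rose (Epha4, Epha5, Epha7) and 0 fell, and of the 5 EphB receptors 3 rose (Ephb2, Ephb3, Ephb6). All 6 have the receptor role, although Ephb6 is known to lack kinase activity. Of the 4 ephrin-A ligands 3 rose (Efna1, Efna2, Efna5), whereas the ephrin-B ligands split, with Efnb2 higher in RBP4 and Efnb3 higher in VGAT.

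Efna1 had 5.36, 5.69, 7.73, 5.42 and 9.13 cpm in the 5 RBP4 TRAP libraries and 0.510, 0.297, 1.08, 0.634 and 0.583 cpm in those of VGAT. The lowest RBP4 library was above the highest VGAT library, and the VGAT values rest on 5 to 17 counts per library. The log2 fold change was 3.41 ± 0.45 (SE), adjusted p = 5.60e-07 (edgeR). In WCH, which was not captured, Efna1 was 7.47 to 9.32 cpm in RBP4 and 6.53 to 7.45 cpm in VGAT, groups that just failed to overlap in a comparison in which no guidance gene passed the test.

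Epha4 had 273, 178, 289, 234 and 288 cpm in RBP4 TRAP and 78.0, 89.2, 125, 85.9 and 140 cpm in VGAT TRAP. No library of one line reached the other (log2 fold change 1.28 ± 0.20, adjusted p = 6.10e-06, edgeR). Ephb3, an EphB receptor found at excitatory synapses, was at 9, 10.6, 11.1, 9.56 and 9.52 cpm in RBP4 and at 2.36, 3.27, 7.27, 3.44 and 3.94 cpm in VGAT, of which replicate 3 was the highest. Its log2 fold change was 1.29 ± 0.26 (adjusted p = 3.29e-04, edgeR). Efna5 differed by 1.39 ± 0.35 (adjusted p = 0.00323), Epha7 by 1.10, Efna2 by 1.03, Ephb2 by 0.79, Ephb6 by 0.76, Epha5 by 0.61 and Efnb2 by 0.61 on the log2 scale.

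Nrp1, the co-receptor through which Sema3a repels axons, was also higher in RBP4, with 54.8, 39.4, 41.8, 42.1 and 40.1 cpm against 9.69, 7.79, 23.0, 12.1 and 17.4 cpm in VGAT. No RBP4 library fell within the VGAT range (log2 fold change 1.64 ± 0.26, adjusted p = 1.28e-05, edgeR). Unc5a, a netrin receptor, had 15.7, 19.5, 19.8, 21.9 and 21.5 cpm in RBP4 and 7.65, 5.41, 10.8, 7.29 and 8.31 cpm in VGAT (1.32 ± 0.24, adjusted p = 6.77e-05). Plxnd1, the plexin that binds Sema3e, differed by 1.25 ± 0.25 (adjusted p = 2.30e-04) and Plxna1, which pairs with neuropilins, by 0.68. Slit3, a Robo ligand, differed by 1.24 ± 0.34 (adjusted p = 0.00643), with 1 RBP4 library at 30.4 cpm and the other 4 between 9.9 and 15.3 cpm. Sema4a, a membrane semaphorin, was the only semaphorin called higher in RBP4 (0.82).

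Sema4g had 9.18, 5.69, 10.3, 7.78 and 11.5 cpm in RBP4 TRAP and 27.4, 29.6, 29.8, 39.6 and 23.9 cpm in VGAT TRAP. The lowest VGAT library stood above every RBP4 library (log2 fold change -1.76 ± 0.18, adjusted p = 6.15e-09, edgeR). Sema5a, a membrane semaphorin with thrombospondin repeats, was at 16.6, 17.6, 12.5, 16.2 and 19.6 cpm in RBP4 and at 25.9, 29.2, 35.5, 34 and 34.4 cpm in VGAT. Its log2 fold change was -0.95 ± 0.15 (adjusted p = 1.73e-05, edgeR), again without overlap. The secreted semaphorins Sema3c (-1.22 ± 0.28, adjusted p = 0.00127) and Sema3a (-0.69 ± 0.19, adjusted p = 0.00570) were higher in VGAT, as were the membrane semaphorins Sema6c (-1.24 ± 0.41, adjusted p = 0.0240) and Sema6a (-0.64), the netrin receptor Unc5b (-0.83) and the Slit receptor Robo1 (-0.79). Sema6c rests on 1 to 17 counts per library in RBP4 TRAP and 19 to 24 in VGAT TRAP. Efnb3 fell by 0.48 on the log2 scale (adjusted p = 0.0412), and with TMM scaling its adjusted p was 0.0834.

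**Figure D2:**
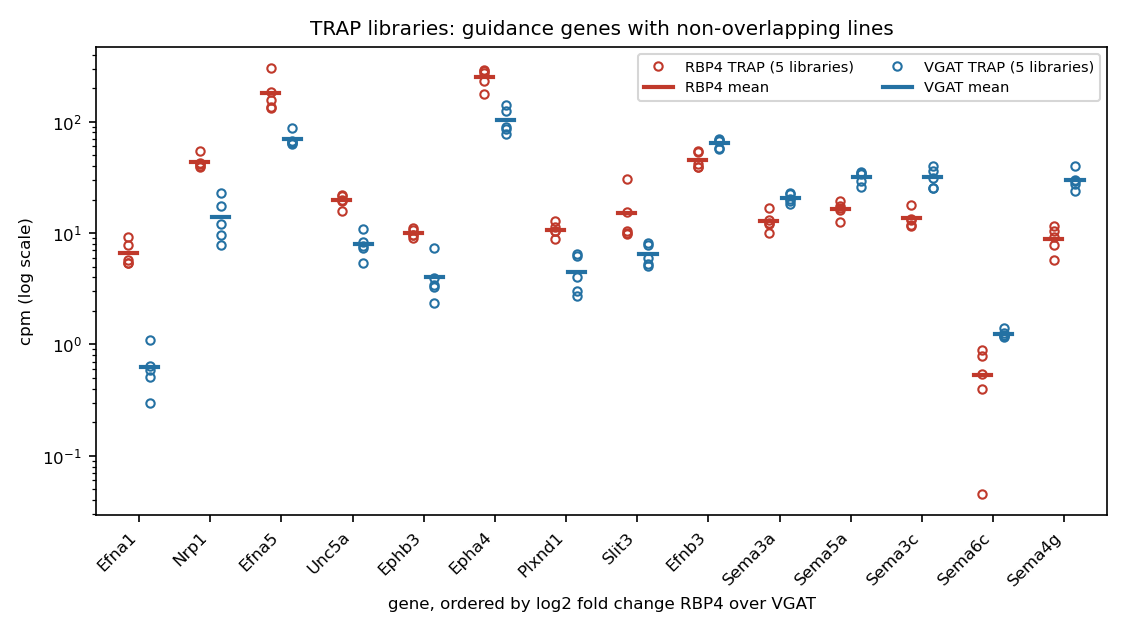
The level in cpm, on a log axis, is plotted for each of the 5 RBP4 and 5 VGAT TRAP libraries (circles, with the mean as a bar) for the 14 genes that were called and had the largest differences among those whose libraries did not overlap. Efna1 at the left has all RBP4 libraries at 5.36 cpm or more and all VGAT libraries at 1.08 cpm or less, and Sema4g at the right has the reverse order.

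Of the 62 genes, 19 had TRAP libraries that did not overlap between the lines, 13 higher in RBP4 and 6 higher in VGAT. Of all 16898 genes tested, 9.58% and 13.2% did the same. Other cell types were present in unequal amounts among these libraries. The oligodendrocyte marker genes summed to 341 to 4702 cpm in RBP4 TRAP, with replicate 5 highest, and to 374 to 2162 cpm in VGAT TRAP, and their part in the line differences was not tested. Plxnb3, a plexin that myelin-forming cells are known to express, followed these libraries, with 0.894, 0.941, 1.4, 0.682 and 8.46 cpm in RBP4 TRAP, and was not called between the lines.

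In ST, where ribosomes were captured from the synaptoneurosomes of the same pools, no difference between the lines passed the test for any of the 62 genes. With edgeR 0 were called, against 0.325% of all genes, 3 had an unadjusted p under 0.05 (Sema4g, Sema7a and Robo3, each lower in RBP4), and DESeq2 called 0. Without RBP4 pool 2, 1 gene was called lower. Without RBP4 ST replicate 4, 0 were called and 6 had an unadjusted p under 0.05. For the RNA before capture, in WCH 0 were called by edgeR (background 0.0118%) and 0 by DESeq2, with 2 at an unadjusted p under 0.05 (Epha8 and Efnb3), and in SNF 0 were called by edgeR (background 0.0169%) and 0 by DESeq2, with 0 at an unadjusted p under 0.05. Over the 25 genes called in TRAP, the median absolute log2 difference was 1.03 in TRAP and 0.159 in ST, although the standard errors had a similar median, 0.260 in TRAP and 0.253 in ST. All 25 had a smaller absolute difference in ST, where 6 had the opposite sign; since the 25 were chosen on the TRAP difference, this is a description.

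Whether the line difference itself changed from TRAP to ST was tested as an interaction over the TRAP, ST and WCH libraries of both lines. It was called for 9 of the 62 genes, 2 of them with a larger value in ST (background 5.02%) and 7 with a smaller value (background 5.79%). Every one of the 9 was among the 25. The marker genes of the targeted cells changed in the same way: all 8 GABAergic markers had a larger value in ST and 4 of 5 layer 5 and glutamatergic markers a smaller one. Gad1 went from -4.50 in TRAP to -0.75 in ST and Slc17a7 from 3.24 to 0.56, with 396 to 713 cpm of Slc17a7 in VGAT ST and 24.6 to 155 cpm in VGAT TRAP. A smaller line difference in ST was thus measured for genes outside the guidance list as well. Efna1 had the largest shift: its line difference went from 3.41 in TRAP to 0.42 in ST, a change of -2.99 ± 0.58 (log2, adjusted p = 5.92e-04, edgeR). In ST it had 9.38, 15.1, 2.13, 5.22 and 11.3 cpm in RBP4 and 8.64, 10.6, 1.10, 6.84 and 4.84 cpm in VGAT, with replicate 3 lowest in both lines and the groups overlapping.

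Among the receptors, Epha4 went from 1.28 in TRAP to 0.08 in ST (change -1.20 ± 0.27, adjusted p = 0.00296), with 363, 635, 255, 398 and 418 cpm in RBP4 ST and 429, 507, 306, 410 and 303 cpm in VGAT ST. Nrp1 went from 1.64 to 0.33 (change -1.31 ± 0.36, adjusted p = 0.0150) and Ephb3 from 1.29 to 0.00 (change -1.29 ± 0.36, adjusted p = 0.0174). Unc5a, Plxnd1 and Sema4a changed by -1.15, -1.11 and -0.97. In the opposite direction, Sema4g went from -1.76 to -0.52 (change 1.23 ± 0.25, adjusted p = 9.09e-04) and Sema5a from -0.95 to -0.08 (change 0.87 ± 0.22, adjusted p = 0.00649).

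These 4, Efna1, Epha4, Sema4g and Sema5a, were called in every alternative fit of the interaction, leaving out any 1 pool included. The other 5 were lost in at least 1 of them, and the count of genes with a smaller value in ST ranged from 2 to 13: it was 4, 13 and 3 without RBP4 pools 1, 2 and 3 and 2 without VGAT pool 1 or 2. Without RBP4 ST replicate 4 it was 7, with 4 genes larger in ST, and without RBP4 pool 5 the larger ones were 5.

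**Figure D3:**
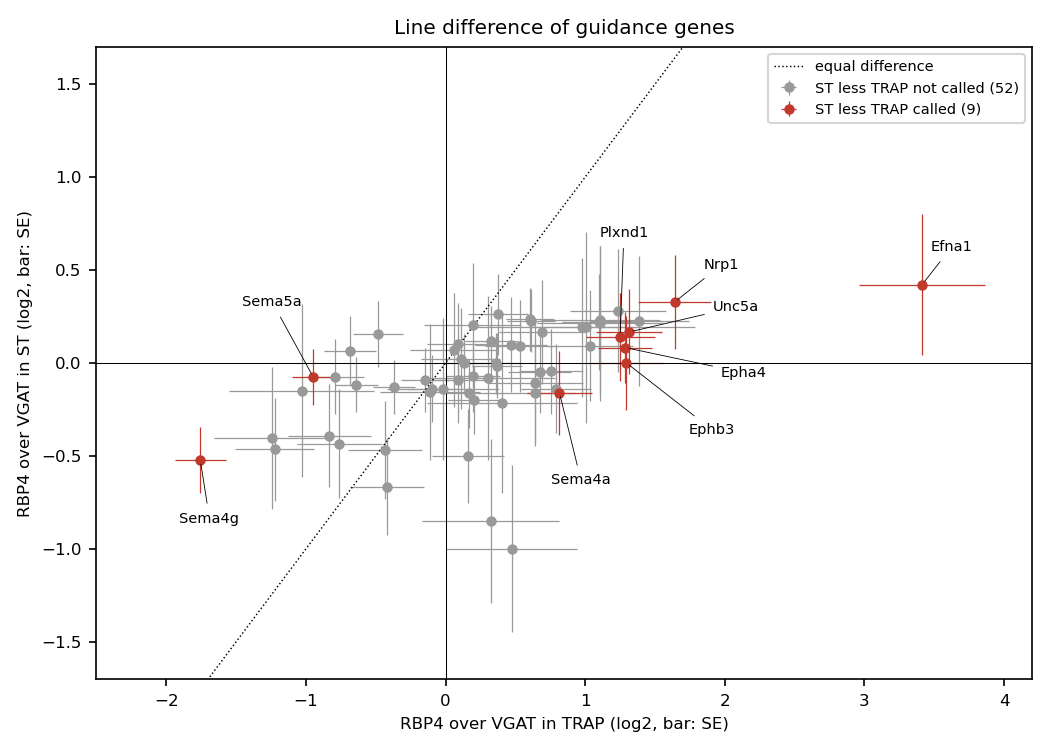
Each point is a gene, with its log2 difference RBP4 over VGAT in TRAP on the x axis and in ST on the y axis (bars are SE), and the 9 genes whose difference changed from TRAP to ST are named. The points spread along x from Sema4g at -1.76 to Efna1 at 3.41, and along y from Robo3 at -0.999 to Efna1 at 0.42. The 9 named genes lie off the dotted line of equal difference. Sema3g is not drawn.

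Most guidance genes were higher in the synaptoneurosome fraction than in the homogenate it came from, and none was called lower. Within RBP4, SNF exceeded WCH for 42 of 62 genes (background 13.4% of genes) and 0 were lower (background 36.1%; 0 at an unadjusted p under 0.05 and 0 by DESeq2). In the VGAT line 54 of 61 were higher (background 19.3%) and 0 lower (background 45.2%, and again 0 by DESeq2 or at an unadjusted p under 0.05). Sema3g was not tested in the VGAT line. The median log2 fold change was 0.91 in RBP4 and 1.06 in VGAT, against -0.50 and -0.52 over all genes tested. Relative to that median, 61 of 62 and 61 of 61 genes lay above it. In both lines 42 genes were called higher and 7 were called in neither. Without pool 3, whose SNF libraries had the most mitochondrial counts, 46 genes were higher in RBP4 and 56 in VGAT.

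All roles took part. Every Slit (3 of 3) and every Unc5 receptor (4 of 4) was higher in both lines, as were 8 of 9 plexins in RBP4 and 9 of 9 in VGAT, and 9 and 13 of 13 membrane semaphorins. Of the secreted semaphorins 5 of 7 and 5 of 6 were higher, of the EphB receptors 4 of 5 in each line, and of the Robos 2 of 3 in each. The share was smaller among the EphA receptors, 2 of 8 in RBP4 and 5 of 8 in VGAT, and the ephrin-A ligands, 1 of 4 and 3 of 4. These shares are from edgeR. DESeq2 called 57 of 62 genes higher in RBP4 and 59 of 61 in VGAT, so the low shares of these roles depended on the test.

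Plxnb1, the receptor of Sema4d, had the largest increase. It was at 18.9, 9.46, 18.3, 12.9 and 19.1 cpm in RBP4 WCH and at 46.4, 40.1, 110, 44.2 and 37.5 cpm in RBP4 SNF, where replicate 3 was far above the rest (log2 fold change 1.82 ± 0.49, adjusted p = 0.00459, edgeR). In VGAT it went from 9.98, 9.36, 18.3, 14.5 and 14.8 cpm to 39.8, 38.0, 108, 44.0 and 53.2 cpm, again with replicate 3 highest and no overlap (2.08 ± 0.34, adjusted p = 1.80e-05). Sema3e, the secreted ligand of Plxnd1, rose from 22.8, 28.0, 28.0, 23.4 and 24.7 cpm to 71.8, 102, 53.4, 70.6 and 40.9 cpm in RBP4 (1.41 ± 0.30, adjusted p = 8.59e-04). In VGAT it rose from 23.9 to 35.5 cpm over the 5 WCH libraries to between 64.9 and 98.0 cpm in SNF (1.53 ± 0.18, adjusted p = 6.24e-07).

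Slit1, a Robo ligand, rose by 1.35 in RBP4 and 1.41 in VGAT, and the Slit receptor Robo2 by 1.04 and 1.21. Among the plexins and semaphorins, Plxnb2 rose by 1.26 and 1.52, and the secreted Sema3d by 1.28 and 1.53. Epha4, the most abundant of the receptors per kb, had 425, 408, 440, 420 and 419 cpm in RBP4 WCH and 888, 1060, 587, 756 and 666 cpm in SNF, with every SNF library above every WCH library (0.91 ± 0.21, adjusted p = 0.00159). Among the genes that were not called in either line, Efna5 had a log2 difference of 0.09 in RBP4 and 0.13 in VGAT, and Robo3 had -0.63 and 0.03. Efna5 was unusually variable in the homogenate, with 81.5, 310, 206, 136 and 132 cpm in RBP4 WCH.

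**Figure D4:**
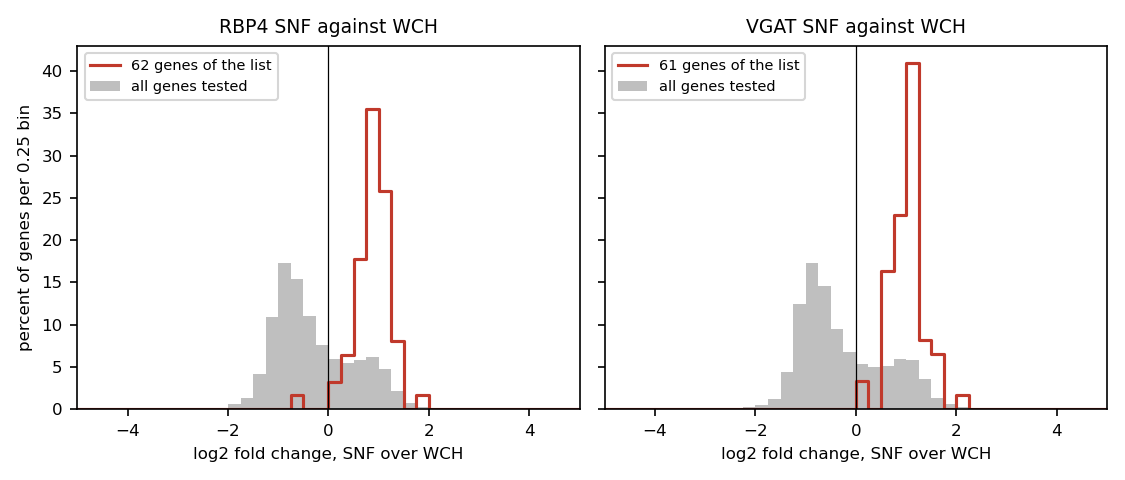
Bars show the percent of all tested genes, and the red line the percent of the guidance genes, in each 0.25-wide bin of log2 fold change of SNF over WCH (left, RBP4; right, VGAT). The red line lies to the right of 0, around a median of 0.91 and 1.06, while the bulk of all genes lies left of 0.

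Long transcripts make up this list: the median summed exon length was 6.37 kb, against 3.48 kb for all genes tested in the RBP4 line. Among genes with 4.38 to 8.01 kb of exon, the middle range of the list, 15.5% of 4457 genes were higher in RBP4 SNF and 20 of 30 guidance genes were; in VGAT the values were 22.1% and 25 of 29. Glial markers moved in the same direction. Oligodendrocyte markers summed to 5839 to 8876 cpm in RBP4 WCH and 11410 to 17221 cpm in SNF, and 4 of 5 of them were higher in SNF in both lines, as were 5 of 5 astrocyte markers; their part in the rise of the guidance genes was not tested.

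Genes that act downstream of or beside these ligands and receptors were counted as well. Of 57 other pathway genes that were tested, 11 were higher and 17 lower in RBP4 SNF (median log2 -0.30), and 15 were higher and 26 lower in VGAT SNF (median -0.40), where the backgrounds were 13.4 and 36.1% in RBP4 and 19.3 and 45.2% in VGAT. The netrin side, that is the netrins, their receptors and the related RGM proteins, rose in 4 of 10 genes in RBP4 and 7 of 10 in VGAT, with medians of 0.67 and 0.83, and 0 fell. Of 13 Eph effectors 1, the membrane protease gene Adam10 (0.78), was higher and 7 were lower in RBP4 (median -0.61). Of 12 Slit and Robo effectors 3 were higher and 5 lower, and of 23 semaphorin effectors 3 and 6. This list was drawn up with results of these data known, so its counts are a description.

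TRAP was compared with WCH to ask which guidance genes are over- or under-represented on the ribosomes of the tagged cells. Most that changed were lower in TRAP. In RBP4 28 of 62 genes were lower (background 31.5%) and 0 were higher (background 8.37%; 0 at an unadjusted p under 0.05). Here the scaling matters: with TMM factors 5 were higher and 20 lower, and DESeq2 gave 5 and 22, while over all genes the split went from 1427 higher and 5372 lower to 3296 and 3815. The 5 that TMM called higher were Efna2 (0.90), Ephb6 (0.78), Unc50 (0.73), Efna3 (0.64) and Unc5a (0.62). In VGAT 42 of 61 genes were lower (background 41.8%) and 5 higher (background 21%), against 36 and 7 with TMM, where the all-gene split went from 3561 and 7106 to 4987 and 5530. The median log2 fold change was -0.54 in RBP4 and -0.88 in VGAT, and the all-gene medians were -0.34 and -0.31. The share lower in RBP4 was 45.2% (32.3% with TMM, against 22.4% of all genes), and in both lines 24 genes were lower, 0 were higher and 12 were called in neither.

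In VGAT all 9 plexins, both neuropilins, all 4 Unc5 receptors, 6 of 8 EphA and 4 of 5 EphB receptors were lower in TRAP. In RBP4 the plexins (6 of 9), neuropilins (2 of 2) and Unc5 receptors (3 of 4) fell as well, whereas 0 of 4 ephrin-A ligands, 0 of 3 Slits and 3 of 8 EphA receptors did. Among the largest decreases in RBP4 were Sema5a (-2.48 ± 0.21, adjusted p = 1.27e-07), Plxnb3 (-2.33 ± 0.49, adjusted p = 7.94e-04, and -3.63 without pool 5), Sema6a (-2.18 ± 0.19) and Unc5b (-2 ± 0.33). Sema5a, for example, had 80.9, 99.1, 107, 87.1 and 87.7 cpm in RBP4 WCH, so that its RBP4 TRAP libraries given above lay far below. In VGAT the largest were Efna1 (-3.47 ± 0.41, adjusted p = 3.58e-07), Plxnb3 (-2.94 ± 0.31, adjusted p = 1.08e-07), Nrp1 (-2.26 ± 0.21, adjusted p = 1.69e-08) and the vascular receptor Ephb4 (-2.98), which had at most 5 counts in any VGAT TRAP library.

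The genes higher in VGAT TRAP than in VGAT WCH were Sema6c (1.59 ± 0.29, adjusted p = 9.21e-05), Sema4g (1.09 ± 0.15, adjusted p = 3.79e-06), Sema3c (0.50), Efnb3 (0.33) and, outside the guidance genes, Unc50 (0.50). Sema4g rose from 15.8, 11.9, 13.5, 17.5 and 12 cpm in VGAT WCH to the 23.9 to 39.6 cpm of VGAT TRAP, with no overlap. The count fell to 3 in a fit of all 40 libraries and without VGAT pool 4 or 5. Oligodendrocyte markers were also lower in TRAP than in WCH, at 341 to 4702 against 5839 to 8876 cpm in RBP4, and astrocyte markers at 83.1 to 690 against 962 to 2053 cpm; their part in the decreases was not tested.

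Captured RNA from synaptoneurosomes, ST, was set against its 2 sources. Against the uncaptured synaptoneurosome RNA, guidance genes were mostly lower: in RBP4 19 of 62 were lower (background 5.46%) and 1 higher (background 5.64%), and in VGAT 30 of 61 were lower (background 11.2%) and 1 higher (background 16.3%). The medians were -0.53 and -0.58 where the all-gene medians were -0.05 and 0.08, and 18 genes were lower in both lines. By role the decreases in VGAT included 5 of 8 EphA receptors, 6 of 13 membrane semaphorins, 4 of 6 secreted semaphorins and 3 of 4 Unc5 receptors, and in RBP4 3, 5 of 13, 3 of 7 and 2. In RBP4 0 of 5 EphB receptors and 0 of the ephrins were called lower. With the pool as a block Efna5 (-1.03, adjusted p = 0.0255) and Efnb2 (-0.57, adjusted p = 0.0427) were lower there too, as were Epha7, Slit2, Sema4f, Nrp2 and Sema3e. Layer 5 and glutamatergic markers were not called in RBP4 (Fezf2 0.24), where the GABAergic Gad2, Npy, Vip and Sst fell. In VGAT the GABAergic Slc32a1 (0.58) and Dlx1 (0.44) rose and the others were not called. Oligodendrocyte markers summed to a median of 14341 cpm in SNF and 28766 cpm in ST of RBP4, and 14831 and 35092 cpm in VGAT. Mbp and Cnp rose in both lines, and Mog fell in VGAT. The part of these markers in the decreases was not tested.

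Unc5d, a netrin receptor, was at 166, 170, 96.3, 179 and 104 cpm in RBP4 SNF and 51.5, 75.1, 45.2, 63.2 and 45.6 cpm in RBP4 ST, and no ST library reached an SNF library (-1.35 ± 0.20, adjusted p = 1.30e-04, edgeR). In VGAT it was at 186, 181, 118, 146 and 141 cpm in SNF and 46, 57.2, 60.3, 68.1 and 48.9 cpm in ST (-1.46 ± 0.14, adjusted p = 7.01e-08). Sema4d, the ligand of Plxnb1, fell by 1.4 in RBP4 and 1.27 in VGAT, Sema6a by 1.36 in RBP4, and Sema5a by 1.11 and 1.24. In VGAT Epha3 (-1.4), Efna5 (-1.35), Slit2 (-1.30) and Epha5 (-1.22) fell too. The RBP4 count of decreases depended on the pools, with 6 lower without pool 1, 8 without pool 4 and 15 without ST replicate 4 alone.

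One gene in each line was called higher in ST than in SNF. In VGAT it was Sema6c, with 0.951, 1.38, 0.559, 1.02 and 1.22 cpm in SNF and 2.60, 3.17, 2.54, 2.01 and 1.66 cpm in ST (1.21 ± 0.27, adjusted p = 0.00174); its log2 difference in RBP4 was 0.60 and not called. In RBP4 it was Sema3g, a secreted semaphorin known from endothelial cells, with 0.690, 4.85, 0, 1.13 and 1.94 cpm in ST and at most 0.347 cpm in any SNF library (3.14 ± 0.88), a call that was lost without pool 1, 2 or 4. The endothelial markers summed to 19.2, 352, 6.01, 46.8 and 68.2 cpm in the same 5 RBP4 ST libraries, highest in the library with the most Sema3g and lowest in the one with none, and their part was not tested. The study took genes higher in ST than in SNF and in SNF than in WCH as local translation candidates. The same rule at an unadjusted p under 0.05, a threshold set here, was met by 0 of 62 genes in RBP4 (0 with DESeq2 and 0 without ST replicate 4 too), where 71 of all genes met it (background 0.417%), and by Sema6c alone in VGAT, where 220 genes did (background 1.29%). With TMM 208 and 401 of all genes met it, and with DESeq2 277 and 508, with the same guidance genes. With the pool as a block Sema4g met it as well.

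Against TRAP, guidance genes were higher in ST in both lines, 42 of 62 in RBP4 (background 26%) and 53 of 61 in VGAT (background 37.5%). None was lower in RBP4 (background 29.1%; 1 at an unadjusted p under 0.05, 0 by DESeq2) or in VGAT (background 34%; 0 at an unadjusted p under 0.05, 0 by DESeq2). With the pool as a block 1 gene, Efna5, was lower in RBP4 (log2 -1.01, adjusted p = 0.00742). The medians were 0.88 and 1.27 against all-gene medians of -0.07 and 0.08, and 36 genes were higher in both lines. Without RBP4 ST replicate 4 the RBP4 count was 36. Among genes of 4.38 to 8.01 kb, 34% were higher in RBP4 and 24 of 30 guidance genes were, and 45.7% and 26 of 29 in VGAT.

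Plxnb1 again had one of the largest changes. In ST it was at 39.4, 33.6, 126, 117 and 32.1 cpm in RBP4 and at 93.3, 84.2, 98.5, 43.1 and 48.9 cpm in VGAT. In TRAP the levels were 3.04, 1.29, 3.42, 3 and 13.7 cpm in RBP4 and 1.98, 2.67, 5.29, 2.54 and 7.10 cpm in VGAT, so that every ST library exceeded every TRAP library in either line. The log2 fold changes were 3.83 ± 0.54 (adjusted p = 4.20e-06, and 4.87 without pool 5) in RBP4 and, in VGAT, 4.22 ± 0.38 (adjusted p = 2.49e-09, edgeR). The plexins as a group were higher in 8 of 9 genes in RBP4 and 9 of 9 in VGAT, the EphB receptors in 4 and 5 of 5, the membrane semaphorins in 11 and 12 of 13, and the neuropilins in 2 of 2 in each. The EphA receptors were higher in 3 of 8 genes in RBP4 and 7 of 8 in VGAT, the ephrin-A ligands in 0 and 3 of 4.

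Genes with a line difference in TRAP are given for both lines. Efna1 rose by 3.37 ± 0.41 from VGAT TRAP to VGAT ST, and in RBP4 its log2 difference was 0.37 and not called. Nrp1 rose by 2.50 ± 0.21 in VGAT and by 1.18 ± 0.27 in RBP4. Sema5a rose by 2.35 ± 0.21 in RBP4 and by 1.47 ± 0.12 in VGAT. Sema4g rose by 1.20 ± 0.20 in RBP4, and in VGAT its log2 difference was -0.04 and not called. Other genes not called in VGAT were Sema3c (-0.03) and Robo1 (0.08). Oligodendrocyte markers summed to 27360 to 37404 cpm in RBP4 ST and 24513 to 42633 cpm in VGAT ST, far above TRAP in both lines, and all 5 oligodendrocyte and all 5 astrocyte markers were higher in ST than in TRAP in both lines. Their part in the higher level of the guidance genes was not tested.

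Several plexins, semaphorins and an EphB receptor were lowest on average in TRAP and highest in SNF in both lines, without a called line difference. Plxna2, a receptor for membrane semaphorins of class 6, had 209, 208, 226, 228 and 214 cpm in RBP4 WCH, 85.1, 65.9, 63.5, 85.6 and 92 cpm in TRAP, 440, 465, 250, 434 and 333 cpm in SNF and 139, 229, 99.9, 213 and 133 cpm in ST. TRAP libraries were thus the lowest and SNF libraries the highest, with no TRAP library reaching WCH or ST. In VGAT the ranges were 191 to 223 cpm in WCH, 57.3 to 76.9 in TRAP, 262 to 478 in SNF and 122 to 243 in ST. Its line difference in TRAP was 0.21 ± 0.18 (log2, adjusted p = 0.440, edgeR), and every step between fractions was called in both lines. Plxna4, which transmits Sema3a and class 6 signals, fell by 1.27 and 1.34 from WCH to TRAP and rose by 0.96 and 1.05 from WCH to SNF in RBP4 and VGAT. Plxnc1, the receptor of Sema7a, fell by 0.81 and 0.74 and rose by 0.77 and 0.91 in the same steps. Sema6d fell by 1.45 and 1.03 and rose by 0.83 and 0.93, and the receptor Ephb1 fell by 1.08 and 1.11 and rose by 1.14 and 1.17.

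A few genes were at the limit of the depth. In RBP4 WCH the secreted semaphorins Sema3b and Sema3f averaged 0.722 ± 0.234 and 0.972 ± 0.301 cpm (SD, n = 5), Epha1 0.558 ± 0.147, Sema4c 0.949 ± 0.379 and Ephb4 0.943 ± 0.258 cpm. Of these Sema3f rose from WCH to SNF in both lines (1.06 and 1.54), and Sema4c in VGAT (1.18). Sema3b was called in no comparison by edgeR without TMM factors or a block, with log2 differences between -0.37 and 0.96 within the lines. With the pool as a block Sema3b was higher in RBP4 SNF than in WCH (adjusted p = 0.0358, edgeR).

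**Figure D5:**
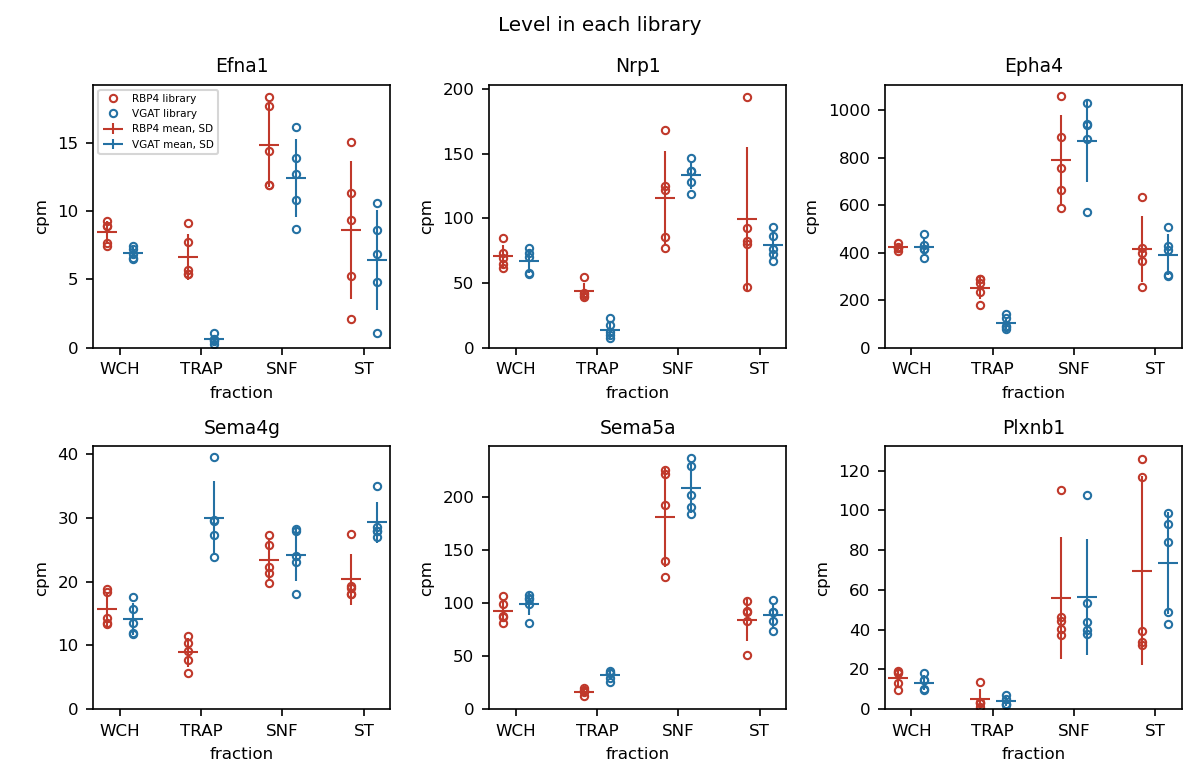
The level in cpm (linear axis from 0) of 6 guidance genes is shown in every library by fraction, RBP4 in red and VGAT in blue, with the mean and SD of 5 libraries. The lines overlap in SNF and ST for all 6 and are apart in TRAP for all but Plxnb1, which is low in TRAP and high in SNF and ST of both lines.

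In the line comparison of TRAP, 17 of the 57 other pathway genes were higher in RBP4 (background 12.9%) and 10 were higher in VGAT (background 15.1%). Draxin, a netrin antagonist (2.13), Met, the hepatocyte growth factor receptor that associates with plexins (1.96), Ntng2, a membrane-anchored netrin (1.58), Neo1, the receptor of netrins and RGM proteins (1.17), and Rgma (1.18) were higher in RBP4. Srgap1, a GTPase-activating protein downstream of Robo (-2.34), the netrins Ntn4 (-2.32) and Ntn1 (-1.55), and the ephrin-B scaffolds Grip2 (-1.92) and Grip1 (-1.75) were higher in VGAT. In ST 0 of the 57 were called between the lines.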

How the data were processed

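RNA of 40 libraries was analysed: WCH, TRAP, SNF and ST from 5 pools of each line. Per the labels, RNA was amplified with the SMARTer Ultra Low kit, which does not mark strand. The submitters' processing notes name STAR 2.0.4b, Subread and featureCounts 1.4.5; the genome build is not given in the sources used here. The authors deposited raw counts per gene for each library, with CPM and RPKM values computed from them. The deposited CPM and RPKM values were recomputed from the deposited counts as a check, and only the counts were tested.

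The quasi-likelihood test of edgeR 4.0.16 was run in R 4.3.3 on these counts after 390 mitochondrial, rRNA and tRNA genes were left out, with the remaining totals as library sizes and no further factor. A gene was tested if 3 or more libraries of the fit reached 0.5 cpm. In the fit of 30 libraries between lines, only the TRAP and ST libraries counted toward this. Comparisons within a line were fitted on its 20 libraries, and those between lines on the 30 TRAP, ST and WCH libraries of both. The SNF comparison between lines came from a fit of all 40 libraries. Benjamini-Hochberg adjustment ran over all genes tested, and an adjusted p of at most 0.05 was a call. The standard error of a fold change was taken as its absolute log2 value divided by the square root of the F statistic. Depth sets the precision of low genes, and 1 count was worth up to 0.112 cpm. The fit was tested on simulated data. Alternatives were TMM factors, DESeq2 1.42.0, a likelihood ratio test, other count filters, no genes left out, a fit of all 40 libraries, the replicate block and leaving out each pool; a block by pool in the ST less TRAP contrast was added after seeing the data.

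Fractions of one pool share a number by the protocol in the labels. Over 30 pairs of fractions within a line, deviations from the group means correlated at a mean of 0.212 (RBP4) and 0.245 (VGAT) for the same number, and at -0.0531 and -0.0608 for other numbers. Nothing in the labels ties pools of the 2 lines together.

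The genes, the pathway list and the markers were chosen with earlier results of these data known. Full statistics went to at most 8 called genes in each direction whose libraries did not overlap, and to up to 4 genes of highest level per role. Genes outside this rule are named where a count or an exception turns on them. Exons of Efna3 (14.1%), Plxna1 (10.7%), Sema4c (8.78%) and Epha1 (7.21%) overlap a gene on the other strand, so their reads cannot be fully told apart. Promoter sequences are from RefSeq. The p-values measure the spread between libraries, and fractions of one pool were treated as independent unless a block is named.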

Additional observations from a re-analysis of the deposited data

Results flagged for a closer look

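In 4 of the 28 groups of 5 TRAP libraries that were checked, the highest library lay far from the other 4. The groups share the same libraries, so this count was not set against chance. Nrp1 reached 54.8 cpm in an RBP4 TRAP library, with the others between 39.4 and 42.1 cpm. Efna5 reached 87.5 cpm in a VGAT TRAP library, with the others between 63.2 and 67.0 cpm. Slit3 reached 30.4 cpm in an RBP4 TRAP library against 9.9 to 15.3 cpm, and Sema3c 17.9 cpm in an RBP4 TRAP library against 11.7 to 13.4 cpm. Each of these 4 genes was called between the lines with all 5 libraries.

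The difference between the lines changed from TRAP to ST for 9 genes, by a test of the change itself (edgeR interaction, adjusted over all genes). On the log2 scale the change was -2.99 for Efna1, -1.31 for Nrp1, -1.29 for Ephb3, -1.20 for Epha4, -1.15 for Unc5a, -1.11 for Plxnd1 and -0.97 for Sema4a. It was 1.23 for Sema4g and 0.87 for Sema5a.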

How the results depend on the processing

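The alternatives were applied to 90 gene results, those called with the largest changes in each comparison. Of 1319 refits of these, 1271 stayed on the same side of the threshold, 48 lost the call and 0 reversed. The 90 were chosen for large changes and the refits share most libraries, so the lack of reversals is a description. Other genes named above are not among them, such as Sema3g in RBP4 ST against SNF, whose call was lost without some pools. The lost calls belonged to 10 results, namely Efnb3 and Sema6c between the TRAP lines, Ephb3, Nrp1, Plxnd1, Sema4a and Unc5a in the change from TRAP to ST, Ephb4 in RBP4 TRAP against WCH, and Sema3d and Sema5b in RBP4 ST against SNF.

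Some counts of called genes moved by more than 1.5 times, and the cause was not tested. Genes higher in RBP4 TRAP than WCH went from 0 to 5 with TMM factors and to 5 with DESeq2. Those higher in VGAT TRAP than WCH went from 5 to 3 in a fit of all 40 libraries, and were 3 to 5 when each pool was left out (3 without VGAT pool 4 or 5). For RBP4 ST against SNF, genes higher went from 1 to 0 with a filter of 1 cpm in 5 libraries, where Sema3g is not tested, and were 0 to 1 when each pool was left out. Genes lower there went from 19 to 6 with no genes left out of the library sizes, and were 6 to 23 when each pool was left out (6 without RBP4 pool 1 and 8 without pool 4). Genes lower in RBP4 ST than TRAP went from 0 to 1 with the replicate block and to 1 in the fit of all 40 libraries, with 0 to 1 when each pool was left out. Genes lower in RBP4 ST than VGAT ST were 0 to 1 when each pool was left out. For the change from TRAP to ST, genes larger in ST went from 2 to 5 with DESeq2 and were 2 to 5 when each pool or RBP4 ST replicate 4 was left out, and those smaller in ST were 2 to 13 against 7. The local translation criterion in VGAT was met by 1 gene, by 2 with the replicate block, by 3 with no genes left out, and by 1 to 2 when each pool was left out.

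Between the lines the labels do not tie the numbers together, and not every pair correlated: deviations of same-numbered libraries correlated at a mean of 0.146 in TRAP, 0.0438 in ST, 0.190 in WCH and 0.219 in SNF, against -0.0324, -0.0102, -0.0458 and -0.0435 for other numbers, and of 10 libraries 5, 2, 3 and 5 correlated best with their own number. A block by number gave 17 higher and 10 lower genes in TRAP against 16 and 9. Within lines the block changed 21 calls of single genes, 18 gained and 3 lost (Robo2, Efnb1 and Sema3c in RBP4 ST against TRAP), and no other call of a gene given with its statistics. Depth limits Ephb4, Sema3g and Sema6c, which had few counts in TRAP.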

Other observations

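Within SNF and ST, libraries of the same number tended to sit at the same end of the range for many guidance genes. Replicate 2 was the highest of 5 for 38 of the 62 genes in RBP4 SNF, 35 in RBP4 ST, 30 in VGAT SNF and 21 in VGAT ST. Replicate 3 was the lowest for 37 in RBP4 SNF, 38 in RBP4 ST, 46 in VGAT SNF and 29 in VGAT ST. The ends differed in TRAP. In VGAT TRAP replicate 3 was the highest for 29 and replicate 2 the lowest for 33. In RBP4 TRAP replicate 2 was the highest for 0 and the lowest for 27. In VGAT WCH replicate 3 was the highest for 22.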
